A study of Saccharomyces cerevisiae with 27 samples.

Results

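The genes described here are 8 mating-type specific genes of the budding yeast Saccharomyces cerevisiae, out of 5434 genes measured. They were chosen by name: 6 are a-specific (STE2, STE6, MFA1, MFA2, BAR1 and AGA2) and 2 are alpha-specific (STE3 and SAG1). Each was represented by 1 probe set, a group of short probes against 1 transcript. The cells were haploid W303 yeast, and their mRNA was measured on 27 arrays of the Affymetrix Yeast Genome design. The 4 groups were scc2-4 cells with an induced break (7 arrays) and without it (7), and wild-type cells with it (6) and without it (7). Experiment 1 gave 3 arrays of each group and experiment 2 gave 3 or 4. An array is called 1_3 if it held replicate 3 of experiment 1. Scc2 is part of the loader that places cohesin rings on chromosomes, and scc2-4 is a temperature-sensitive allele of its gene.

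All 4 groups were given the same treatment. They grew in medium with 2% raffinose and were held in G2/M. Galactose, which turns on the HO endonuclease, was given 30 min after a rise in temperature, and the cells were taken 90 min after that. HO makes 1 double-strand break in cells whose genome holds its site. Since galactose is listed for every group, break and no break are taken to be different strains, so that the effect of cutting and any other strain difference cannot be told apart. One field of the labels puts the break on chromosome VI and another on chr.iv, and the mating type of the strains, the state of the MAT locus and the HO construct are not given in the sources used here. STE2 (YFL026W) is itself on the left arm of chromosome VI by its systematic name.

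In budding yeast the MAT locus sets the mating type, and silent copies of both kinds of mating information lie at HML and HMR. In alpha cells the alpha1 protein works with Mcm1 to turn on alpha-specific genes, and the alpha2 protein works with Mcm1, Tup1 and Cyc8 to turn off a-specific genes, which Mcm1 otherwise drives. In a/alpha cells the a1 and alpha2 proteins together turn off haploid-specific genes and alpha1. HO is the enzyme that normally cuts MAT and starts mating-type switching, in which a silent copy replaces the information at MAT.

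The probe sets of the a-specific and of the alpha-specific genes all had low values on these arrays. Values are RMA log2 intensities, in which the brightness of a probe set also depends on its own probes, so a position among probe sets describes the array and does not rank transcripts. The mean value of all 8 genes lay in the lowest 20% of the genes tested. STE2, the receptor for alpha-factor on a cells, had a mean of 5.63, above 4.21% of all 5684 probe sets. STE6, which exports a-factor, had a mean of 7.71, above 10.9%. MFA1 and MFA2, the genes for the a-factor precursor, stood at 5.97% and 2.99%.

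BAR1, the secreted protease that a cells use to degrade alpha-factor, stood at 5.65%, and AGA2, the binding subunit of a-agglutinin on the surface of a cells, at 2.75%. For the alpha-specific genes the positions were 3.82% for STE3, the receptor for a-factor on alpha cells, and 16.2% for SAG1, the alpha-agglutinin. The positions stayed in the lower part of every array but moved between arrays. STE2 ranged from 3.01% to 5.07% over the 27 arrays, and the gene with the widest range, SAG1, from 11.7% to 22.3%, which was the highest position of any of the 8 genes on any array. Calls of whether a probe set was above background were not used here, so these positions do not settle whether a gene was expressed or which mating type the strains had.

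**Figure D1:**
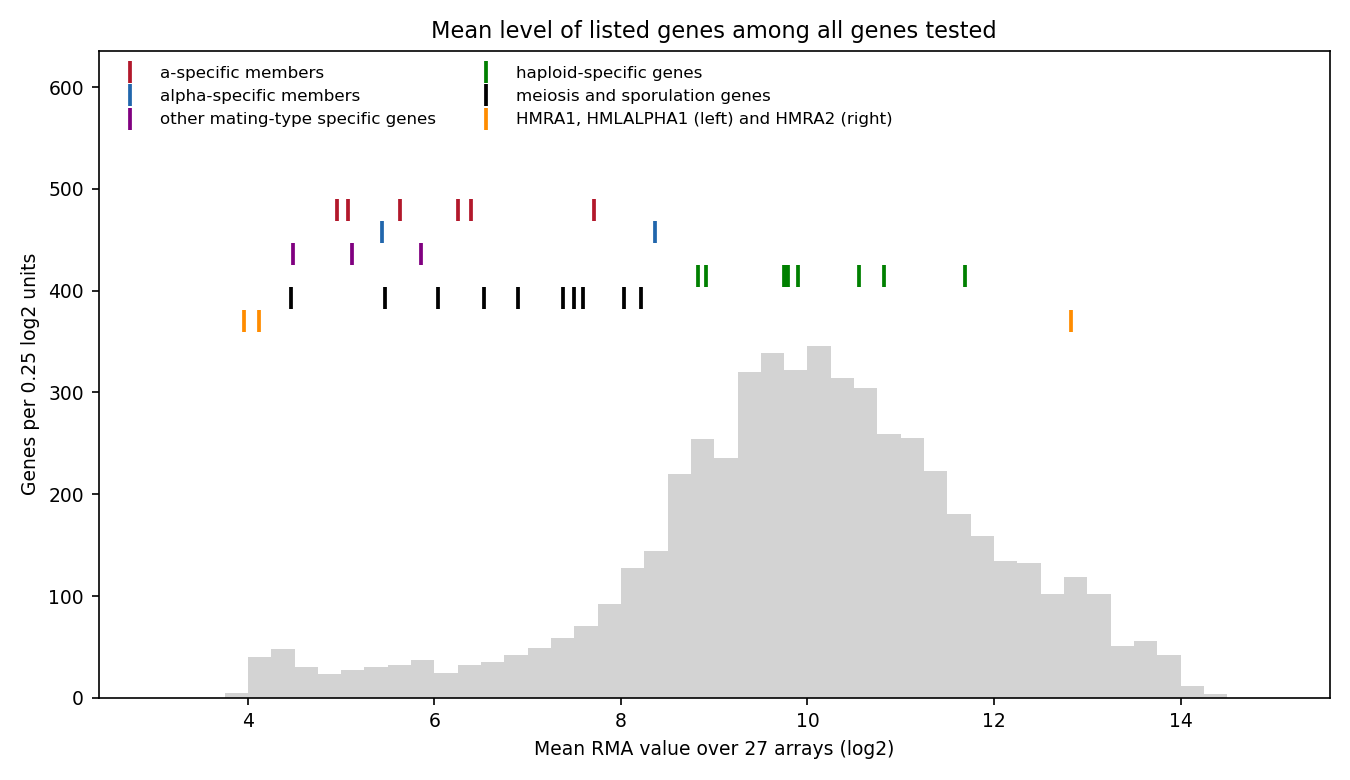
Distribution of the mean RMA log2 value of the 5434 genes over 27 arrays, with a tick for each gene of the lists named in the figure. The 8 mating-type specific genes sit in the lower tail, as do the 10 meiosis and sporulation genes, and 0 of the 9 haploid-specific genes lie in the lowest 20%.

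The other mating-type specific genes on the array were also low. ASG7, an a-specific gene, stood at 4.79%, and the alpha-factor genes MF(ALPHA)1 and MF(ALPHA)2 at 3.17% and 1.76%. Haploid-specific genes are known to be active in haploids and repressed in a/alpha diploids. The 9 of them measured (GPA1, STE4, STE18, STE5, FUS3, FAR1, RME1, NEJ1 and AXL1) had positions of 23.3% to 82.4% with a median of 43.9%, and 0 of 9 lay in the lowest 20%. The 10 meiosis and sporulation genes, which are known to be low in growing haploids, had positions of 1.62% to 14.9%, and 10 of 10 lay in the lowest 20%. The labels give the cells as haploid, and these positions, from probe sets with different probes, do not test that label.

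Positions were also taken for genes that act with the mating type products but are not themselves mating-type specific. The 6 genes for processing of a-factor had a median position of 35.6%, and the 3 proteases that process alpha-factor a median of 50.01%. AGA1, the cell wall anchor of a-agglutinin, stood at 8.38%, and FIG2, a related cell wall protein of mating, at 14.7%.

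Probe sets for the regulators of mating type were at opposite ends of the arrays. HMRA1, the probe set for a1, averaged 3.95, above 0.0528% of probe sets, and HMLALPHA1, the probe set for alpha1, averaged 4.12, above 0.440%. HMRA2 averaged 12.8, above 93.8% of probe sets, and ranged from 89.5% to 95.1% over the arrays. The HMRA2 and HMLALPHA1 probe sets carry the suffix that Affymetrix uses for probes shared by several transcripts, and the a2 sequence is known to match the end of alpha2, so which gene copy gave the HMRA2 signal cannot be told apart. MATALPHA1, MATALPHA2 and HMLALPHA2 had no probe set under their own name in the table used here, so 6 of 9 listed regulators were measured. The shared regulators MCM1, TUP1 and CYC8 stood at 81.9%, 68.0% and 43.1%.

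HMRA1 was at the floor of the arrays in every group, and its value differed between sets of arrays. It read 3.70 to 3.82 on the 12 arrays of experiment 1, 3.51 to 3.67 on the 8 scc2-4 arrays of experiment 2 and 4.67 to 4.73 on the 7 wild-type arrays of experiment 2. The first percentile of all probe sets on those arrays moved in the same way, at 4.06 to 4.14, 3.88 to 3.95 and 4.97 to 5.01. Whole-array medians were 10.19 to 10.22, 10.01 to 10.04 and 9.76 to 9.79. The arrays thus fell into 3 sets that had been normalised apart, with sorted values that differed by 0.00818 to 0.0302 on average within a set and by 0.147 to 0.425 between sets. In experiment 2 each genotype was a set of its own, so genotype and set cannot be told apart there.

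**Figure D2:**
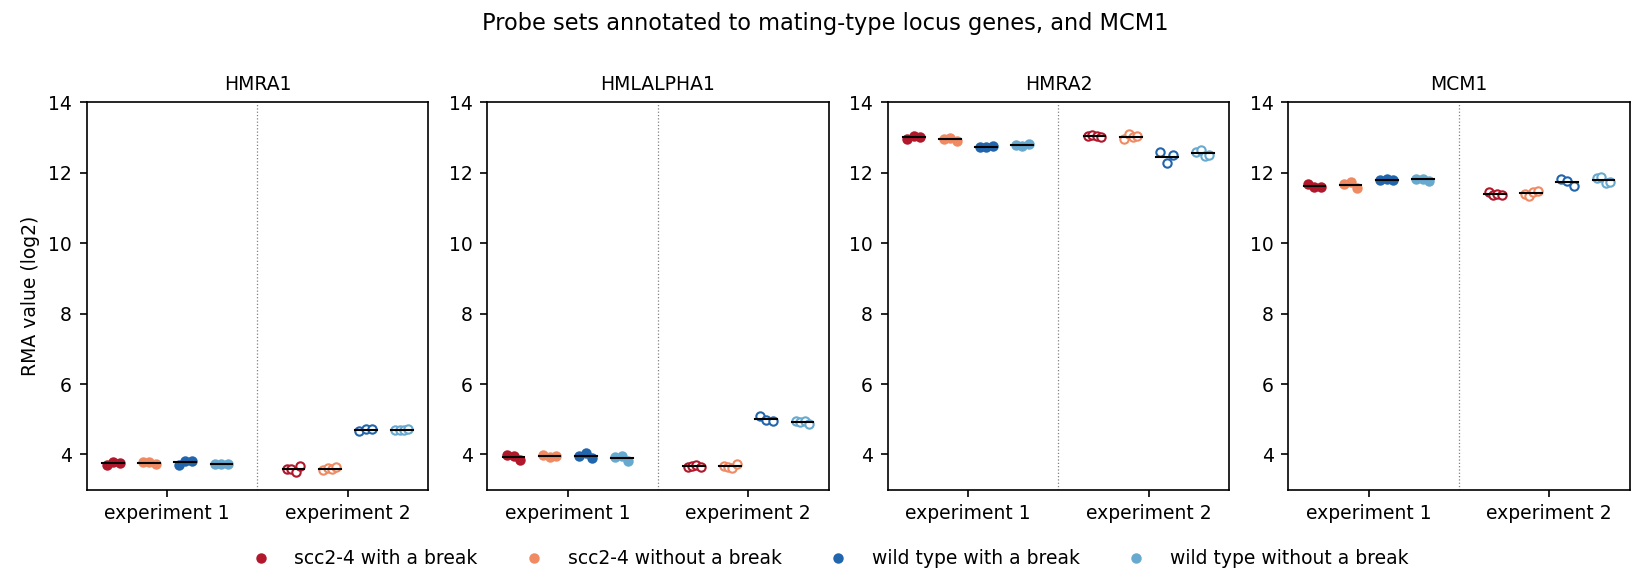
RMA log2 values of HMRA1, HMLALPHA1, HMRA2 and MCM1 on each array by group, with filled points for experiment 1, open points for experiment 2 and a bar at the mean. HMRA1 and HMLALPHA1 lie near the floor of the arrays and HMRA2 near the top in all 4 groups.

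Differences between groups were tested with limma over all 5434 genes and 27 arrays, with the 3 sets as a block and Benjamini-Hochberg adjustment, and a gene was called at an adjusted p below 0.05. With this block the genotypes are set against each other within experiment 1, with 3 arrays a group. The break effects and the spread draw on all arrays and enter the fitted genotype differences, which can therefore depart from the difference of the experiment 1 means. Of the 8 genes, 7 were called in scc2-4 against wild type without a break (2 higher, 5 lower), where 38.6% of all genes were called. With a break 3 of 8 were called (2 higher, 1 lower), against 42.7% of all genes. For break against no break, 0 of 8 were called in wild type (1 at an unadjusted p below 0.05), against 13.5% of all genes. In scc2-4 1 of 8 was called (3 at an unadjusted p below 0.05), against 6.77%. The shares of all genes count calls at the adjusted p only. The break effect in scc2-4 minus that in wild type was called for 0 of 8 (1 unadjusted), against 2.56% of all genes.

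The median log2 change of the 8 genes in these 5 comparisons was −0.16, −0.04, 0.04, 0.12 and 0.07, beside 0.00, 0.01, −0.01, 0.00 and 0.00 over all genes. The count of 7 without a break rested on single arrays. It was 3 without scc2-4 array 1_1, and 4 without scc2-4 array 1_2, without scc2-4 array 1_3 or without wild-type array 1_3. It was also 4 when all arrays were quantile-normalised together, where MFA1, MFA2 and AGA2 were not called. The count with a break was 6 without scc2-4 array 1_3.

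**Figure D3:**
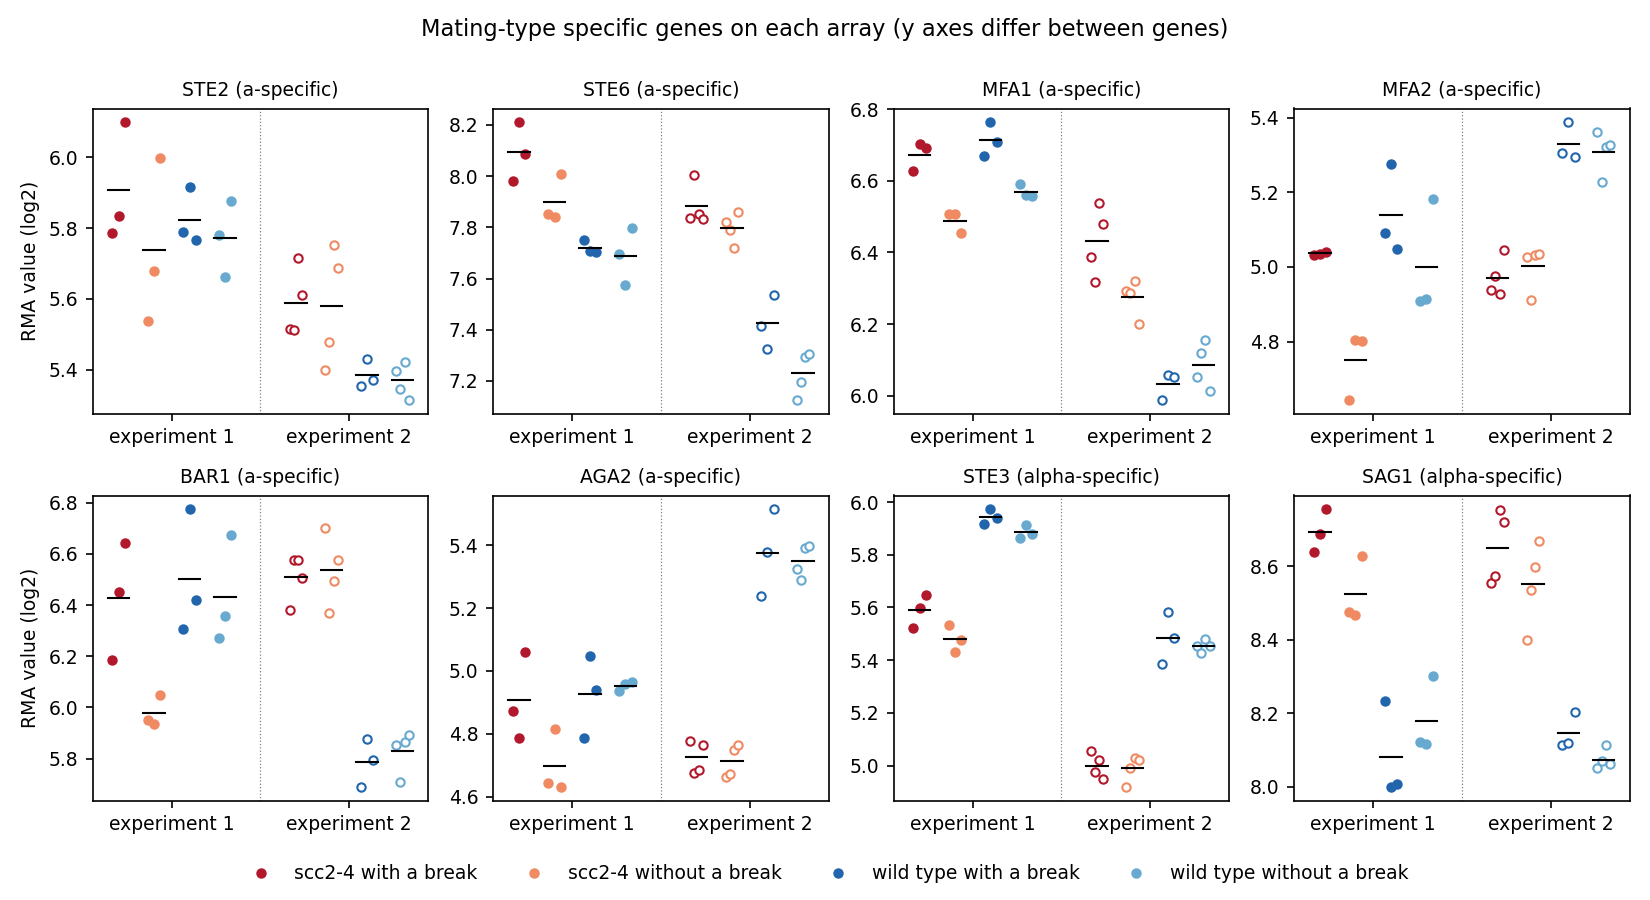
RMA log2 value of each of the 8 genes on each of the 27 arrays, by group from scc2-4 with a break to wild type without a break, with filled points for experiment 1, open points for experiment 2 and a bar at the mean. STE6 and SAG1 are higher and STE3 is lower in scc2-4 in both experiments.

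The pheromone receptors behaved differently from each other. STE3 fell in scc2-4 in both comparisons, and STE2 was called in neither. On scc2-4 arrays of experiment 1 without a break STE3 read 5.53, 5.43 and 5.48, against 5.86, 5.91 and 5.88 in wild type without a break. With a break it read 5.52, 5.60 and 5.65 in scc2-4, against 5.92, 5.97 and 5.94 in wild type. Every scc2-4 array lay below every wild-type array of the same break state. In experiment 2 STE3 read 4.92 to 5.03 in scc2-4 and 5.43 to 5.48 in wild type without a break, and 4.95 to 5.05 in scc2-4 and 5.38 to 5.58 in wild type with one, again without overlap.

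The fitted STE3 change was a log2 of −0.38 ± 0.04 (SE) without a break (limma adjusted p = 6.39e-08) and −0.37 ± 0.04 with one (limma adjusted p = 7.34e-08). STE3 was called after each of the 27 arrays was left out in turn. STE2 read 5.54, 5.68 and 6.0 in scc2-4 and 5.78, 5.66 and 5.88 in wild type in experiment 1 without a break. With a break it read 5.79, 5.83 and 6.10 in scc2-4 and 5.79, 5.92 and 5.77 in wild type. These groups overlapped, with a log2 difference of 0.00 ± 0.09 without a break (limma adjusted p = 0.985) and 0.05 ± 0.09 with one (limma adjusted p = 0.684).

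SAG1 and STE6 rose in scc2-4, one an alpha-specific and the other an a-specific gene. SAG1, whose product binds a-agglutinin during mating, read 8.47, 8.47 and 8.63 in scc2-4 without a break, against 8.12, 8.12 and 8.30 in wild type. With a break SAG1 read 8.64, 8.69 and 8.75 in scc2-4, against 8.23, 8.0 and 8.01 in wild type. No scc2-4 value fell within the wild-type range of the same break state. The fitted change was 0.41 ± 0.06 without a break (limma adjusted p = 1.89e-05) and 0.55 ± 0.06 with one (limma adjusted p = 2.78e-07).

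STE6, an ATP-binding cassette transporter, read 7.85, 7.84 and 8.01 in scc2-4 without a break, against 7.69, 7.57 and 7.80 in wild type. With a break it read 7.98, 8.21 and 8.09 in scc2-4, against 7.75, 7.71 and 7.70 in wild type. The ranges did not overlap in either break state. The fitted change was 0.29 ± 0.06 without a break (limma adjusted p = 0.00079) and 0.30 ± 0.06 with one (limma adjusted p = 0.000427). STE6, STE3 and SAG1 were called in both genotype comparisons in each of the 27 fits that left out 1 array. The alpha-specific genes STE3 and SAG1 thus moved in opposite directions.

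The a-factor genes were called in 1 of the comparisons between genotypes each. MFA1 read 6.51, 6.51 and 6.45 in scc2-4 without a break, against 6.59, 6.56 and 6.56 in wild type. MFA2 read 4.64, 4.80 and 4.80 in scc2-4 without a break, against 4.91, 4.91 and 5.18 in wild type. Both were lower in scc2-4 with no overlap in these arrays, by a fitted log2 of −0.12 ± 0.05 for MFA1 (limma adjusted p = 0.0392) and −0.19 ± 0.07 for MFA2 (limma adjusted p = 0.0321). The MFA1 call was kept in 15 of 27 fits that left out 1 array, with log2 changes of −0.15 to −0.11, and was not made in experiment 1 alone (−0.08, limma adjusted p = 0.15). The arrays whose removal ended it were 1_1, 1_2, 1_3 and 2_4 of scc2-4 without a break, 1_1, 2_3 and 2_4 of scc2-4 with a break, and 1_2, 1_3, 2_1, 2_2 and 2_3 of wild type with a break. The MFA2 call was kept in 23 of 27 fits and was lost without scc2-4 array 1_1, 1_2 or 1_3 or wild-type array 1_3, all without a break.

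With a break MFA1 read 6.63, 6.70 and 6.69 in scc2-4, against 6.67, 6.76 and 6.71 in wild type, and the fitted difference was 0.00 ± 0.05 (limma adjusted p = 0.962). MFA2 read 5.03, 5.04 and 5.04 in scc2-4 with a break, against 5.09, 5.28 and 5.05 in wild type, and the difference was −0.16 ± 0.07 (limma adjusted p = 0.0659). The MFA1 ranges overlapped, and those of MFA2 did not. MFA2 passed in 5 of 27 fits that left out 1 array, those without scc2-4 array 1_1, 1_2 or 1_3 with a break or wild-type array 1_1 or 1_2 without one.

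BAR1 and AGA2 had the same pattern in experiment 1, with low values in scc2-4 without a break. BAR1 read 5.95, 5.94 and 6.05 there, against 6.27, 6.36 and 6.67 in wild type. AGA2 read 4.64, 4.81 and 4.63 in scc2-4, against 4.93, 4.96 and 4.96 in wild type. Neither pair of ranges overlapped, and the fitted changes were −0.35 ± 0.11 for BAR1 (limma adjusted p = 0.0182) and −0.19 ± 0.06 for AGA2 (limma adjusted p = 0.0257). The BAR1 call was lost without scc2-4 array 1_1, scc2-4 array 1_2 or wild-type array 1_3. The AGA2 call was lost without scc2-4 array 1_1, scc2-4 array 1_3, wild-type array 1_2 or wild-type array 1_3.

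With a break BAR1 read 6.19, 6.45 and 6.64 in scc2-4, against 6.31, 6.77 and 6.42 in wild type, and AGA2 read 4.87, 4.79 and 5.06 in scc2-4, against 4.79, 5.05 and 4.94 in wild type. Here the groups overlapped for both genes. The fitted differences, which also draw on the break effects of experiment 2, were −0.18 ± 0.11 for BAR1 (limma adjusted p = 0.214) and −0.09 ± 0.06 for AGA2 (limma adjusted p = 0.276). The experiment 1 means alone differed by −0.07 for BAR1 and −0.02 for AGA2. Both genes passed when scc2-4 array 1_3 with a break was left out, with changes of −0.29 for BAR1 (limma adjusted p = 0.0366) and −0.16 for AGA2 (limma adjusted p = 0.0434).

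**Figure D4:**
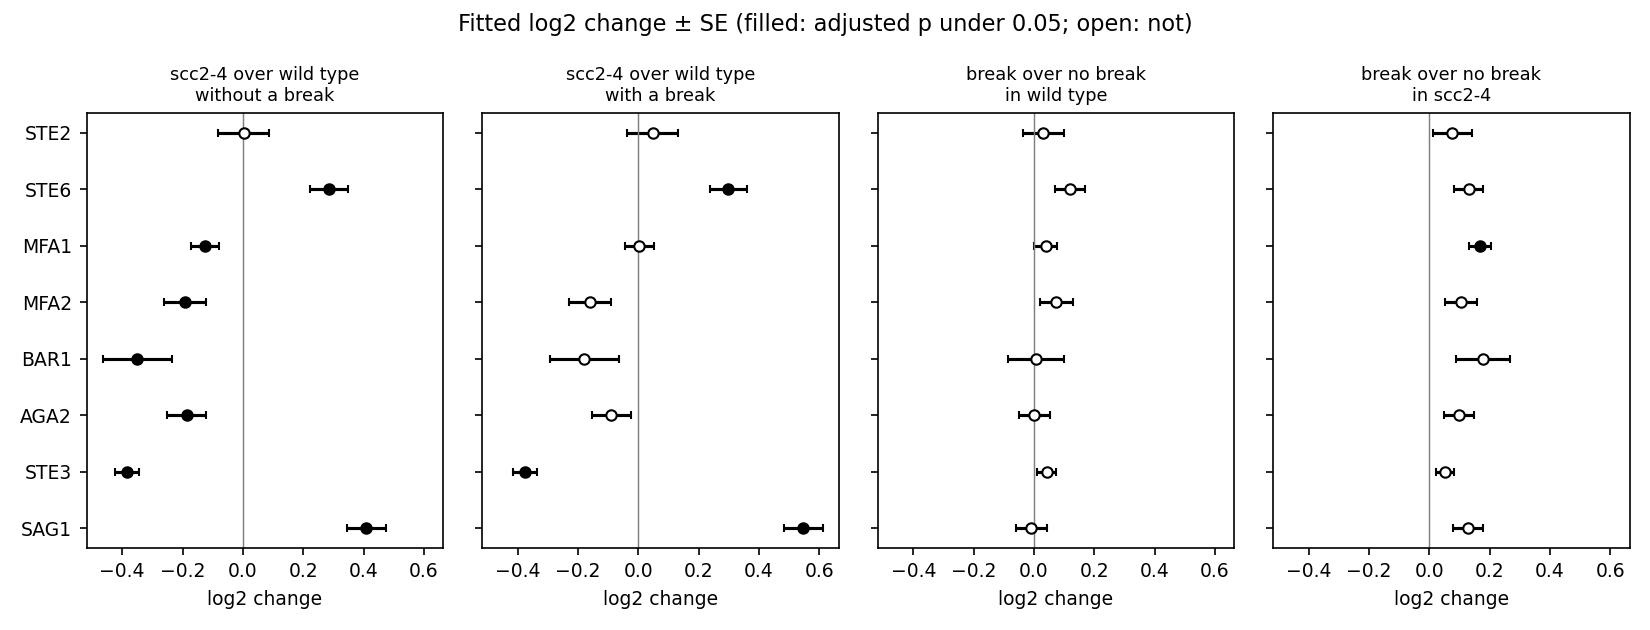
Fitted log2 change ± SE of each of the 8 genes in 4 comparisons, with the sets as a block; filled points have a limma adjusted p below 0.05. STE3 is lower and STE6 and SAG1 are higher in scc2-4 in both break states, and the changes with the break lie between −0.01 and 0.18.

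In experiment 2, where genotype and processing set coincide, BAR1 and MFA1 had other signs than in experiment 1 in both break states, and STE2 without a break. With experiment 2 fitted alone, the median log2 difference of all genes was 0.24 without a break and 0.23 with a break. Over the lowest 20% of genes it was 0.12 and 0.07. The values of experiment 2 are to be read against these shifts, which do not hold down to the floor. In experiment 2 the first percentile was 3.88 to 3.95 on scc2-4 arrays and 4.97 to 5.01 on wild-type arrays. HMRA1, at the floor, differed by −1.11 without a break. Which shift applies to the genes nearest the floor, among them AGA2, MFA2, STE3 and STE2, was not tested. BAR1 was lower in scc2-4 in experiment 1 without a break (−0.46) and higher in experiment 2 (0.71), where it read 6.70, 6.37, 6.5 and 6.58 in scc2-4 and 5.85, 5.71, 5.87 and 5.89 in wild type. MFA1 differed by −0.08 in experiment 1 and 0.19 in experiment 2 without a break, and by −0.04 and 0.40 with one. AGA2 differed by −0.26 and −0.64 without a break, and by −0.02 and −0.65 with one. BAR1 lay above the all-gene shift of experiment 2 in both break states. MFA1 lay above it with a break, and without one its 0.19 was below the shift of all genes and above that of the lowest 20%, so its direction there depends on the shift it is read against. AGA2 had the same sign in both experiments.

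MFA2 read 4.91 to 5.03 in scc2-4 and 5.23 to 5.36 in wild type in experiment 2 without a break, and differed by −0.25 in experiment 1 and −0.31 in experiment 2. STE2 read 5.40 to 5.75 in scc2-4 and 5.31 to 5.42 in wild type in experiment 2 without a break. The MFA2 ranges were apart, and those of STE2 overlapped. With a break STE2 read 5.51 to 5.72 in scc2-4 and 5.35 to 5.43 in wild type, without overlap. In experiment 2 alone STE2 was called in both states, at 0.21 without a break (limma adjusted p = 0.0109) and 0.20 with one (limma adjusted p = 0.0202), values below the all-gene shifts of that experiment and above those of the lowest 20%. In experiment 1 it differed by −0.03 and 0.08.

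The 3 genes called in both break states kept their direction in experiment 2. STE3 differed by −0.41 in experiment 1 and −0.46 in experiment 2 without a break, and by −0.35 and −0.48 with one. SAG1 differed by 0.34 in experiment 1 and 0.48 in experiment 2 without a break, and by 0.61 and 0.50 with one. STE6 differed by 0.21 and 0.57 without a break, and by 0.37 and 0.46 with one. Against the experiment 2 median of 0.24, SAG1 and STE6 remained higher without a break. STE3 stood above only 3.82% of probe sets, near the floor, where the scc2-4 arrays read lower than the wild-type arrays. Its fall in experiment 2 therefore cannot be told apart from the difference between the sets. Without a break 5 of 8 genes had the same sign in both experiments, and with a break 6 of 8. The share of all genes with the same sign was not counted. Of the genes called in experiment 2 alone, 72% were higher in scc2-4 without a break and 71% with one. Since the same-sign share of all genes is missing, whether these sign counts set the 8 genes apart was not tested. The test of the difference between experiments called 75.8% of all genes without a break and 72.3% with one, so a call in it does not set the 8 genes apart. It is given for the genes it called among the results for a closer look.

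**Figure D5:**
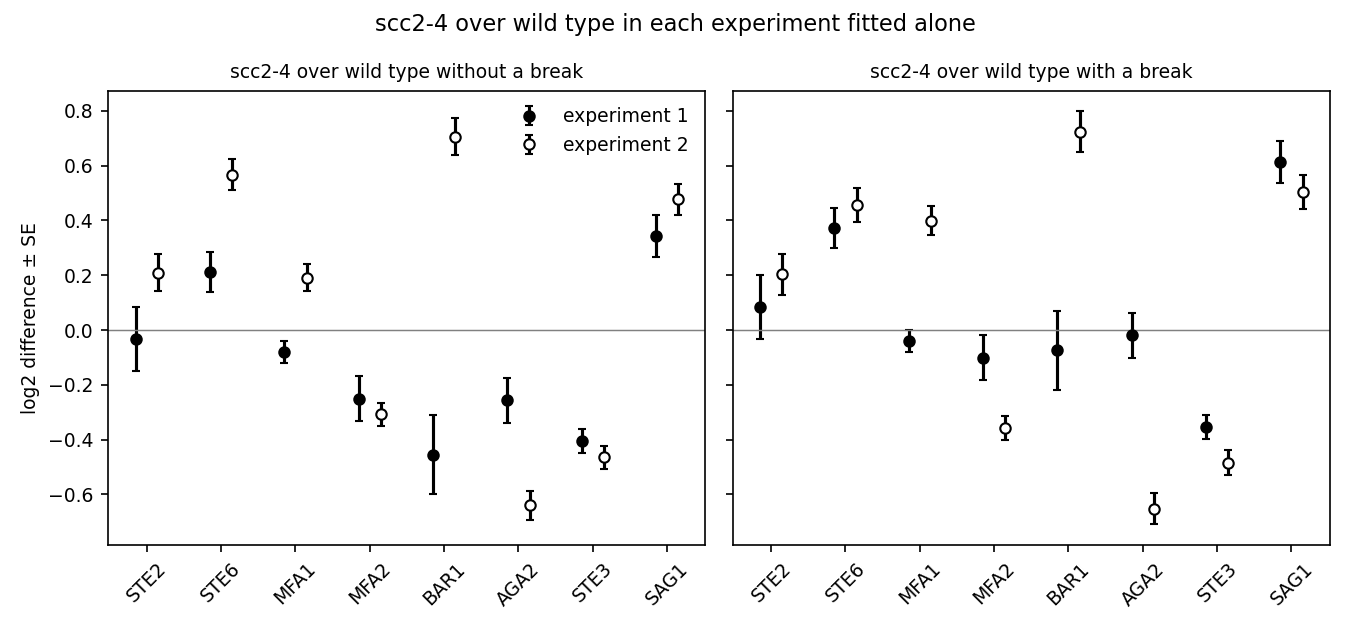
Log2 difference between scc2-4 and wild type ± SE for each of the 8 genes, fitted in each experiment alone, without and with a break. BAR1 is below 0 in experiment 1 and above 0 in experiment 2, while STE3 is below 0 and STE6 and SAG1 are above 0 in both.

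Changes of these genes with the break were small. In experiment 1 the arrays also correlated across groups in a way that was uneven between break states, as given in the last section. The part of this in the break differences was not tested. In wild type the fitted log2 differences ran from −0.01 to 0.12, and the largest was that of STE6 (0.12, limma adjusted p = 0.118). STE6 read 7.75, 7.71 and 7.70 in wild type with a break, against 7.69, 7.57 and 7.80 without one in experiment 1, and 7.42, 7.33 and 7.54 with a break, against 7.13, 7.19, 7.29 and 7.31 without one in experiment 2. The values overlapped in experiment 1 and not in experiment 2. STE6 passed without wild-type array 1_3 of the group without a break (0.15, limma adjusted p = 0.0493).

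In scc2-4 the differences with the break ran from 0.05 to 0.18, and MFA1 was the 1 gene called. MFA1 read 6.63, 6.70 and 6.69 in scc2-4 with a break, against 6.51, 6.51 and 6.45 without one in experiment 1. In experiment 2 it read 6.39, 6.32, 6.54 and 6.48 with a break, against 6.29, 6.29, 6.32 and 6.20 without one. All values with a break were the higher in experiment 1, and the ranges overlapped at their edge in experiment 2. The fitted rise was 0.17 ± 0.04 (limma adjusted p = 0.00621). It was as large but not called in experiment 1 alone (0.18, limma adjusted p = 0.0702), in experiment 2 alone (0.16, limma adjusted p = 0.0536) or with experiment as the block (0.17, limma adjusted p = 0.35).

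BAR1 in scc2-4 read 6.19, 6.45 and 6.64 with a break, against 5.95, 5.94 and 6.05 without one in experiment 1, and 6.38 to 6.58 with a break, against 6.37 to 6.70 without one in experiment 2. The groups were apart in experiment 1 and overlapped in experiment 2. STE2, on the left arm of chromosome VI, differed with the break by 0.03 ± 0.07 in wild type (limma adjusted p = 0.799) and 0.08 ± 0.07 in scc2-4 (limma adjusted p = 0.52). Its values with and without the break overlapped in each genotype and experiment. The break effect in scc2-4 minus that in wild type ran from 0.01 to 0.17 for the 8 genes, and for MFA1 it was 0.13 (limma adjusted p = 0.202), so the rise of MFA1 was not shown to differ between genotypes.

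The genes of related lists were counted with the same calls, to be read against the 38.6% of all genes called without a break and 42.7% with one. Among the other mating-type specific genes, 2 of 3 were lower in scc2-4 in both break states. MF(ALPHA)1, the main alpha-factor gene, read 4.83, 4.69 and 4.84 in scc2-4 without a break in experiment 1, against 5.79, 5.51 and 5.44 in wild type. These ranges were apart, with a fitted change of −0.66 ± 0.08 (limma adjusted p = 3.64e-07), and it was −0.43 ± 0.08 with a break (limma adjusted p = 7.51e-05). ASG7 fell by 0.31 without a break and by 0.29 with one. An a-specific and an alpha-specific gene of this list thus both fell. With the break in wild type, MF(ALPHA)1 was the 1 of 3 called, against 13.5% of all genes. Its change there was −0.19 ± 0.06 (limma adjusted p = 0.0355).

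Among the 6 measured regulators, 1 was higher and 1 lower without a break, and 2 higher and 1 lower with one, counts near the shares of all genes (38.6% and 42.7%). HMRA2 rose by 0.16 ± 0.05 without a break (limma adjusted p = 0.00907) and 0.27 ± 0.05 with one (limma adjusted p = 5.88e-05). MCM1, the factor shared by both classes of mating-type specific gene, fell in both states, with log2 changes of −0.17 ± 0.05 without a break (limma adjusted p = 0.00451) and −0.16 ± 0.05 with one (limma adjusted p = 0.00521). TUP1 rose by 0.13 with a break. HMRA1 and HMLALPHA1 were called in neither comparison. HMRA2 read 12.96, 12.97 and 12.91 in scc2-4 without a break in experiment 1, against 12.78, 12.76 and 12.81 in wild type. With a break it read 12.97, 13.04 and 13.01 in scc2-4, against 12.73, 12.72 and 12.76 in wild type. The groups did not overlap in either state.

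Among the 6 genes for processing of a-factor, 1 was higher (RAM2, 0.15) and 1 lower (STE24, −0.11) without a break. With one, 2 were higher (STE14, 0.31, and RAM2, 0.11) and 1 lower (STE24, −0.24). These counts too were near the 38.6% and 42.7% of all genes. RAM2 is a subunit of the farnesyltransferase, STE14 the methyltransferase and STE24 a protease that act on the a-factor precursor. Of the 3 proteases for alpha-factor, 2 were higher without a break (KEX1 and KEX2, both 0.15) and 2 with one (KEX2, 0.12, and STE13, 0.27). AGA1 rose by 0.24 without a break and 0.28 with one, and FIG2 by 0.14 with one.

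Of the 9 haploid-specific genes, 3 were higher and 0 lower in scc2-4 without a break, and 4 higher and 0 lower with one, near the shares of all genes called in either direction (38.6% and 42.7%). STE18, the gamma subunit of the G protein behind the pheromone receptors, rose by 0.30 without a break and 0.55 with one, and GPA1, its alpha subunit, by 0.24 and 0.28. STE4, the beta subunit, was called in neither state, with log2 changes of −0.19 without a break and −0.12 with one. FAR1, which arrests the cell cycle in response to pheromone, rose by 0.55 with a break. In wild type FAR1 fell with the break by 0.48, as the 1 of 9 haploid-specific genes called there, against 13.5% of all genes. Of the 10 meiosis and sporulation genes, 2 were higher and 7 lower without a break, and 2 higher and 6 lower with one, with medians of −0.30 and −0.29. All 10 lie in the lowest 20% of genes, of which 42% were called without a break and 44.7% with one. HOP1, a protein of meiotic chromosome axes, fell by 0.86 without a break, and SPR3, a septin of sporulation, by 0.70.

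Low signal by itself went with a similar share of calls. In the lowest 20% of genes by mean value (1087 genes), 42% were called in scc2-4 against wild type without a break and 44.7% with one. The median size of the log2 difference was 0.14 and 0.15 among them, and 0.24 and 0.17 for the 8 genes. The part of low signal in the calls of the 8 genes was not tested.

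After centring each value on the mean of its set, correlations between the 8 genes over the 27 arrays ran from −0.74 to 0.85. These correlations describe the arrays, which share their groups and sets, and carry no test. MFA2 and BAR1 had a Pearson r of 0.850, BAR1 and AGA2 of 0.674, and MFA2 and AGA2 of 0.626. STE3 had an r of 0.592 to 0.605 with each of these 3 genes. STE2 and MFA1 had an r of at most 0.473 with any other of the 8. STE6 and SAG1 had an r of 0.785, and STE3 and SAG1 of −0.737. The a-specific exporter STE6 was thus nearer to the alpha-specific SAG1 than to the a-specific MFA1, with which its r was −0.02.

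The genes most like the mean of the 6 a-specific genes over the 27 centred arrays were PHS1 (r of 0.886), PNP1 (0.884), ATG10 (0.860), ERG5 (0.857) and ERG25 (0.854). Those most unlike it were ELM1 (−0.858), YML131W (−0.856) and MDG1 (−0.849). The closest gene was BIO4 for STE2 (0.784), DNM1 for STE6 (0.855), TIR1 for MFA1 (0.787), EFM4 for MFA2 (0.860), YIH1 for BAR1 (0.890) and TAH1 for AGA2 (0.748). For the alpha-specific genes it was YNR064C for STE3 (0.940) and SST2 for SAG1 (0.921).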

How the data were processed

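The authors deposited log2 expression values, 1 column per array, which the submitters' processing notes credit to RMA and R 2.9.2. The RMA version, the arrays in each run and the genome build are not given in the sources used here. RMA corrects background, quantile-normalises arrays run together and summarises probes. The log2 scale is taken from the naming of RMA and the values' range. Column centring is unknown, and no ratio was involved, so direction is settled. Per the labels, RNA was isolated after zymolase treatment (1 h, 30 °C) and replicates are biological; p-values measure the spread between these arrays, whose number limits precision.

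Of 5684 probe sets, 5468 had 1 gene symbol, 0 several and 216 none; symbols were updated through the R64 gene table (5468 matched). For 34 genes with several probe sets the brightest was kept, leaving 5434. Groups and processing sets (experiment 1, wild type of experiment 2, scc2-4 of experiment 2) were fitted in R 4.3.3 with limma 3.58.1 (lmFit, eBayes), and p-values were adjusted over all genes by Benjamini-Hochberg, at a threshold of 0.05. The code was tested on simulated data.

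The 8 genes, the lists, the block and the alternatives were chosen with earlier results of these data known. Named genes were the 8 and up to 3 of each list with the largest change among those called. The genes with the highest or lowest Pearson r were also named. Further regulators and STE4 were named after their values were seen. Promoter sequences were not used here.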

Additional observations from a re-analysis of the deposited data

Results flagged for a closer look

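In 24 sets of 4 arrays of 1 group in experiment 2, the highest or lowest array stood apart by Dixon's test in 2, and chance gives about 1 in 20. STE6 read 8.01 on scc2-4 array 2_2 with a break, against 7.83 to 7.85 on the other arrays of that group. MFA2 read 4.91 on scc2-4 array 2_2 without a break, against 5.03 on the others.

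The difference between scc2-4 and wild type was itself different between the experiments, in 1 break state or both, for 5 of the 8 genes. This count joins both states, so it is not like the share of all genes in either state. Differences are log2 values of experiment 2 minus experiment 1. For BAR1 it was 1.16 without a break (limma adjusted p = 6.68e-07) and 0.80 with one (limma adjusted p = 0.00013). For MFA1 it was 0.27 without a break (limma adjusted p = 0.000659) and 0.44 with one (limma adjusted p = 5.01e-06). For AGA2 it was −0.38 without a break (limma adjusted p = 0.00103) and −0.63 with one (limma adjusted p = 6.8e-06). STE6 differed without a break by 0.36 (limma adjusted p = 0.00146), and MFA2 with one by −0.26 (limma adjusted p = 0.015). The same test called 75.8% of all genes without a break and 72.3% with one, and the genotypes of experiment 2 cannot be told apart from their processing sets.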

How the results depend on the processing

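STE3 stayed lower and STE6 and SAG1 higher in scc2-4, and called, in both break states in each alternative that held them. Leaving out the lowest 20% of genes removed all 8 genes. Without a break 2100 genes were called, and 3594 with experiment as the term, 4613 in experiment 2 alone and 4140 with the experiments averaged; 7 of the 8 genes were called, and 4 after joint quantile normalisation (3 to 7 with 1 array left out). With a break 2318 genes were called, and 4500 in experiment 2 alone and 4077 averaged; 3 of the 8 were called, and 6 with experiment as the term, 8 in experiment 2 alone, 5 with array weights and 7 averaged (3 to 6 with 1 array left out). The experiment term, experiment 2 alone and averaging take in the shift between sets. For the break in wild type 736 genes were called, and 103 with experiment as the term, 22 in experiment 1, 1273 in experiment 2 and 1398 with array weights; 0 of the 8 were called, and 1 in experiment 2 and 1 with array weights (0 to 1 with 1 array left out). For the break in scc2-4 368 genes were called, and 33, 36, 566 and 1358 under those settings (245 to 412 with 1 array left out); MFA1 was the 1 of the 8, and 0, 0, 0 and 2 were called under them. For the difference of break effects 139 genes were called, and 19 with experiment as the term, 11 in experiment 1, 586 with array weights and 213 averaged (84 to 178 with 1 array left out).

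Without a break MFA1 turned to 0.075 with experiment as the term, 0.19 in experiment 2 and 0.055 averaged, and BAR1 to 0.21, 0.71 and 0.13. With a break BAR1 turned to 0.72 in experiment 2 and 0.33 averaged. Centring the arrays on their medians was added after the data were seen. The labels' replicate numbers were not taken to pair the arrays, since not every same-numbered pair had a correlation above 0.1. In experiment 1, 14 of 18 did (−0.67 to 0.77, median 0.58, against −0.52 for other pairs), with the exceptions all of replicate 2, and in experiment 2, 11 of 21 (−0.49 to 0.65, median 0.16, against −0.01). In experiment 1, 5 of 12 arrays correlated best with their own number, and 4 of 15 in experiment 2. Array 1_2 without a break went with the 1_1 arrays of the other groups in both genotypes. In wild type its r was 0.80 with array 1_1 with a break. Array 1_2 with a break went with the 1_3 arrays instead. In wild type its r was 0.74 with array 1_3 without a break. This grouping is uneven between break states, and its part in the break differences of experiment 1 was not tested. With a replicate block 224 genes were called for the difference of break effects.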
